A study of Mus musculus with 4 samples.

Results

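The colony-stimulating factors and their receptors were followed through 7 genes that carry these symbols in both deposited tables: the ligand genes Csf1 and Il34, and the receptor genes Csf1r, Csf2ra, Csf2rb, Csf2rb2 and Csf3r. All 7 were found among the 21883 features of each table. The RNA came from wild-type male young adult mice of the BL6/C57 strain whose sciatic and femoral nerves had been cut on the left 7 days earlier. Groups were ipsilateral (cut side) and contralateral dorsal root ganglia (DRG, the ganglia that hold sensory neuron cell bodies) of lumbar levels 4 to 6, and ipsilateral and contralateral dorsal lumbar spinal cord, with 1 library per group. The contralateral tissue came from operated mice and is not uninjured tissue, and the sources used here do not say whether animals were pooled. No difference below therefore has a replicate check, and no test of the conditions was possible.

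Colony-stimulating factors are secreted proteins that keep blood-derived and tissue-resident myeloid cells alive, dividing and differentiating. CSF1 and IL-34 are unrelated in sequence but bind the same tyrosine kinase receptor, CSF1R, on which microglia and most tissue macrophages depend. GM-CSF, encoded by Csf2, signals through a specific alpha chain (Csf2ra) and a beta chain (Csf2rb) that it shares with interleukin 3 and interleukin 5. Mice carry an extra beta chain gene, Csf2rb2, whose product serves interleukin 3 alone. G-CSF, encoded by Csf3, acts through its own receptor (Csf3r), known best from neutrophils. The comparison of sides asks which of these ligands and receptors differed in the ganglia of the cut nerves, and which differed in the dorsal cord, where sensory neurons send their central branches.

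Levels are in FPKM, fragments divided by transcript length and by the size of the library, which lets genes be compared within a library. DRG and cord were normalized separately, so every order of levels across the tissues given below is side by side only. The side difference is the log2 of (ipsilateral + 1) over (contralateral + 1) FPKM, called the log2 ratio, and measured genes are those that reached 1 FPKM on at least 1 side of a tissue. The added 1 FPKM shrinks the difference of genes near or under 1 FPKM, so the plain fold of the deposited levels is given as well. Intervals are 95% intervals of the plain fold from the standard error that the authors' deposited test statistic implies. They describe 1 library against 1 library and leave out variation between animals.

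Tissue labels matched their defining genes. Avil, a sensory neuron gene, was at 272 FPKM contralaterally and 270.03 ipsilaterally in DRG, and at 0 and 0.077 in cord. Slc32a1, the vesicular transporter gene of inhibitory neurons, was at 70.3 and 54.9 FPKM in cord, and at 0.26 and 0 in DRG. Atf3, an injury-induced transcription factor gene, was at 12.6 FPKM in contralateral and 389 in ipsilateral DRG.

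In DRG, 5 of the 7 genes were measured, of which Csf1 and Csf1r passed 2-fold upward on the ipsilateral side and 0 passed it downward. Over all measured features of that tissue, 3.04% were 2-fold higher and 0.784% were 2-fold lower. In cord, 5 of the 7 were again measured, of which Csf1r and Csf3r passed 2-fold upward and 0 downward, where 4.46% of all measured features were higher and 1.64% were lower. The median log2 ratio of the measured members was 0.72 in DRG and 0.28 in cord, against 0.05 and 0.02 over all measured features. Near the limit of 1 FPKM, Csf2rb just passed in DRG with a highest level of 1.22 FPKM, and Csf2rb2 and Csf3r fell just short there at 0.94 and 0.84. In cord Csf2rb fell short at 0.73 FPKM and Csf2rb2 at 0.54.

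**Figure D1:**
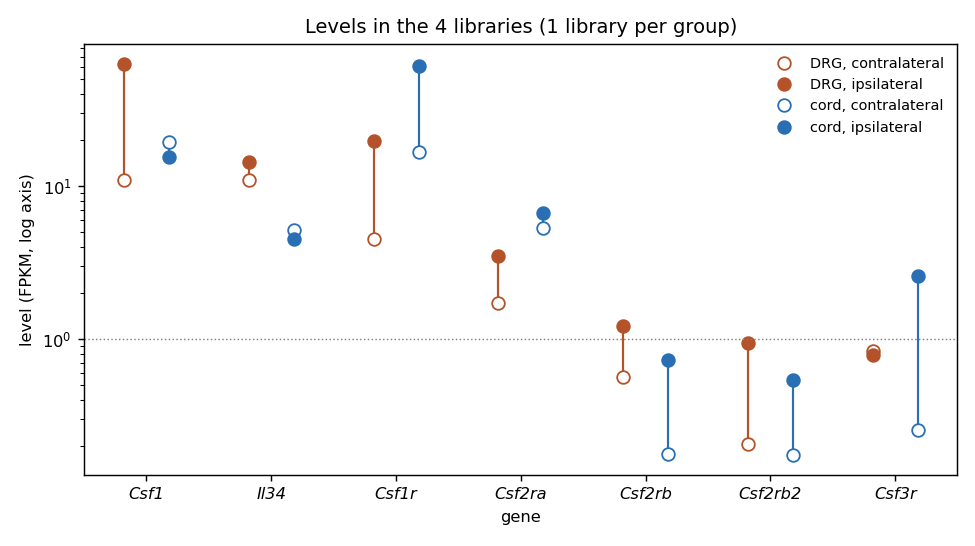
Level of each ligand and receptor gene (FPKM, log axis) in the 4 libraries, DRG in orange and cord in blue, with open points for contralateral and filled points for ipsilateral, joined within a tissue; the dotted line marks 1 FPKM. Csf1 separates the sides in DRG (11.0 against 63.1) but not in cord, Csf1r separates them in both tissues, and Csf3r separates them in cord (0.26 against 2.59).

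Csf1 (mm9 chr3:107543966-107563387), which encodes a growth factor for microglia and macrophages, was at 11.0 FPKM in contralateral DRG and 63.1 in ipsilateral DRG. In cord it was at 19.4 FPKM contralaterally and 15.5 ipsilaterally. As deposited, the ipsilateral ganglia held the highest level of the 4 libraries and the contralateral ganglia the lowest, with both cord libraries between them. The DRG difference was 5.73-fold, or a log2 ratio of 2.42, which ranked 53 among 13137 measured features counted from the highest. By the authors' deposited table its interval ran from 4.54 to 7.23. In cord the log2 ratio was -0.31, with 77.8% of measured features above it, and the fold had an interval from 0.58 to 1.09 by the authors' deposited table, which includes equal levels.

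The stretch before the start of Csf1 is shown because Csf1 was the ligand whose level differed between sides. It is the 250 bases before the RefSeq start on the minus strand of GRCm38.p6 (chr3:107760470-107760719), a different build from the mm9 of the deposited tables, printed in the direction of transcription.
Csf1 upstream: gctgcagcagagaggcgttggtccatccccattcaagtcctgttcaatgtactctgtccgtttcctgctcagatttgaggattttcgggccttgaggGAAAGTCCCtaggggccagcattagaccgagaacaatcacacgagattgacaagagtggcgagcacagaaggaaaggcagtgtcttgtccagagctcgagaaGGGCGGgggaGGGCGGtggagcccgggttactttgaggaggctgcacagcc
Capitals mark 1 match to the NF-kB motif GGGACTTTC, on the opposite strand from 153 to 145 bases before the start, and 2 matches to the GC box GGGCGG. Among 32851 RefSeq promoter windows cut to the same 250 bases, 0.289% held that NF-kB motif and 32.7% the GC box. In all, 12 motifs were searched on both strands, picked with the sequences in view. Those without a match in this window were AP-1 (TGAGTCA), CRE (TGACGTCA), 2 overlapping forms of PU.1 (GAGGAAGT and AGAGGAAG), STAT (TTCNNNGAA), 2 forms of C/EBP (TTGCGCAA, and TTNNGCAA, which contains the first), the TATA box (TATAAA), IRF (GAAANNGAA) and RUNX (TGTGGT). Shares of the windows were 4.46% for AP-1, 1.55% for CRE, 2.44% and 3.67% for the PU.1 forms and 7.02% for STAT. They were 0.164% and 9.56% for the C/EBP forms, 12.4% for TATA, 7.13% for IRF and 14.0% for RUNX. A match describes these letters and is not a binding site.

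Il34 (mm9 chr8:113265729-113329803), whose product is the other ligand of CSF1R, was at 10.9 FPKM in contralateral and 14.4 in ipsilateral DRG. In cord it was at 5.16 FPKM contralaterally and 4.49 ipsilaterally. Both DRG libraries were above both cord libraries, and the sides lay close together in each tissue. The plain fold was 1.32 in DRG, with an interval from 0.86 to 2.03, and 0.87 in cord, with one from 0.48 to 1.57, by the authors' deposited table. Neither interval leaves out equal levels, and neither leaves out a difference of 1.5-fold.

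The balance of the ligands thus differed between the sides in DRG. There Csf1 and Il34 were level contralaterally, with 1.01 times as much Csf1 FPKM as Il34 FPKM, and Csf1 was 4.37 times Il34 ipsilaterally. In cord Csf1 was 3.77 times Il34 contralaterally and 3.44 times ipsilaterally.

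The genes of the remaining ligands gave little or no signal. Csf2, encoding GM-CSF, was listed at 0 in all 4 libraries. Csf3, encoding G-CSF, was listed at 0.066 FPKM in contralateral DRG and at 0 in the other 3 libraries. Il3 was listed at 0 in all 4 libraries, and Il5, the other cytokine of the shared beta chain, did not exceed 0.122 FPKM in any.

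Csf1r (mm9 chr18:61265226-61290793) encodes the receptor of CSF1 and IL-34. It was at 4.51 FPKM in contralateral and 19.8 in ipsilateral DRG, and at 16.7 in contralateral and 61.0 in ipsilateral cord. Each ipsilateral library was above the contralateral library of its tissue, and ipsilateral cord had the highest level of the 4. The difference was 4.40-fold in DRG (log2 ratio 1.92) and 3.65-fold in cord (1.81). Intervals by the authors' deposited table ran from 2.93 to 6.60 and from 2.58 to 5.16. Only 0.61% of measured features in DRG and 0.77% in cord had a larger log2 ratio. In bulk tissue a larger number of cells of a type and more RNA per cell cannot be told apart.

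Ligand and receptor stood in different proportion in the ganglia and the cord. Csf1 FPKM was 2.44 times Csf1r FPKM in contralateral DRG and 3.18 times in ipsilateral DRG, so ligand transcript exceeded receptor transcript on both sides. In contralateral cord the ratio was 1.16. In ipsilateral cord Csf1r was 3.94 times Csf1, the only library of the 4 in which the receptor transcript was the more abundant one of this pair. Il34 FPKM was 2.42 times Csf1r FPKM in contralateral DRG and 0.73 times in ipsilateral DRG, and stayed under it on both sides of the cord.

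Csf2ra (mm9 chr19:61300305-61304321) encodes the alpha chain that gives the GM-CSF receptor its specificity. It was at 1.72 FPKM in contralateral and 3.47 in ipsilateral DRG, and at 5.30 in contralateral and 6.68 in ipsilateral cord. Both cord libraries were above both DRG libraries. The log2 ratio was 0.72 in DRG (plain fold 2.02) and 0.28 in cord (1.26). The fold's interval was 1.08 to 3.80 in DRG and 0.70 to 2.28 in cord by the authors' deposited table, which called neither difference (q = 0.212 and q = 0.728). In cord its log2 ratio was below those of all 10 pan-myeloid markers described with Csf1r.

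Csf2rb (mm9 chr15:78156420-78181431) encodes the beta chain shared by the receptors of GM-CSF, interleukin 3 and interleukin 5. It was at 0.57 FPKM in contralateral and 1.22 in ipsilateral DRG, and at 0.18 and 0.73 in contralateral and ipsilateral cord. The plain folds were 2.14 in DRG and 4.11 in cord, each with the ipsilateral library the higher one. By the authors' deposited table the intervals ran from 1.13 to 4.06 and from 1.43 to 11.8, and neither difference was called (q = 0.17 and q = 0.0897).

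Csf2rb2 (mm9 chr15:78112940-78136033), the extra interleukin 3 beta chain gene of the mouse, was at 0.21 FPKM in contralateral and 0.94 in ipsilateral DRG. In cord it was at 0.17 FPKM contralaterally and 0.54 ipsilaterally. As with Csf2rb, the ipsilateral library was above the contralateral one in both tissues, at levels of about 1 FPKM or less. The plain fold was 4.52 in DRG, with an interval of 1.99 to 10.2 in the authors' deposited table, which called it (q = 0.00893). In cord the plain fold was 3.12 with an interval of 1.03 to 9.41, and the authors' deposited table marked the gene as not tested.

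Csf2rb and Csf2rb2 lie next to each other and are close copies, so how the authors' mapping shared reads between them is uncertain. Over 2628 aligned bases of their longest GENCODE M21 coding sequences, 2503 were identical (95.2%). Of all windows of 50 bases in the Csf2rb coding sequence, 26.0% occur without a change in Csf2rb2, and 11.0% of windows of 100 bases do. The longest identical run is 242 bases (positions 2083 to 2324 of both coding sequences, counted from the first base of the start codon), shown because a read lying wholly inside it fits both genes.
Csf2rb and Csf2rb2 shared run: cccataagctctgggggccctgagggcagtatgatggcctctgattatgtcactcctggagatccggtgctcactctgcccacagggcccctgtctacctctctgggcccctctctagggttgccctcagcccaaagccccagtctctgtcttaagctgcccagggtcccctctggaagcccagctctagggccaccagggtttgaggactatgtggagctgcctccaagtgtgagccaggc
The split of levels between the beta chain genes is therefore uncertain, and so are their separate folds. The plain folds were above 2 for both genes in both tissues, but they may not be independent of each other. The partner alpha chain genes Il3ra and Il5ra stayed at or under 0.41 FPKM in all 4 libraries.

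Csf3r (mm9 chr4:125701903-125721684), the G-CSF receptor gene, differed between sides in cord. It was at 0.26 FPKM in contralateral and 2.59 in ipsilateral cord, a 10.1-fold difference (log2 ratio 1.52). In DRG it was at 0.84 FPKM contralaterally and 0.78 ipsilaterally, a plain fold of 0.93. The ipsilateral cord library was the highest of the 4 and the contralateral cord library the lowest, with both DRG libraries between them. In the authors' deposited table the cord interval was 3.81 to 26.9 (q = 0.000405), and the DRG interval was 0.46 to 1.86. The level of 2.59 FPKM is low, and the cord difference fell under 2-fold at a pseudocount of 3 FPKM (log2 ratio 0.78).

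The 250 bases before the RefSeq start of Csf3r are shown because Csf3r had the largest plain fold of the 7 genes. They lie on the plus strand of GRCm38.p6 at chr4:126024409-126024658.
Csf3r upstream: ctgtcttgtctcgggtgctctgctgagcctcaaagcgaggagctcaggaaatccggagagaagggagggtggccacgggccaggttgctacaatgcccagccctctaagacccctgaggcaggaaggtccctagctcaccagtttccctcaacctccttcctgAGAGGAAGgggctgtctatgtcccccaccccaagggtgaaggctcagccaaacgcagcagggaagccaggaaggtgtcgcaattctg
Capitals mark the 1 match among the 12 motifs, the PU.1 form AGAGGAAG from 87 to 80 bases before the start, a form that 3.67% of all promoter windows held.

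Neutrophil markers were at or near 0 in the tissue where Csf3r differed. In cord, 7 of the 10 neutrophil markers found were at 0 in both libraries, among them S100a9, Camp, Ltf, Elane and Cxcr2, and 0 of the 10 reached 1 FPKM. Their summed level was 0.47 FPKM in contralateral and 0.87 in ipsilateral cord. In DRG the same 10 genes summed to 312 FPKM contralaterally and 292 ipsilaterally, and the 7 measured ones had a median log2 ratio of -0.22. Csf3r itself was at 0.84 and 0.78 FPKM in DRG. Which cells held the Csf3r transcripts was not tested in either tissue.

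**Figure D2:**
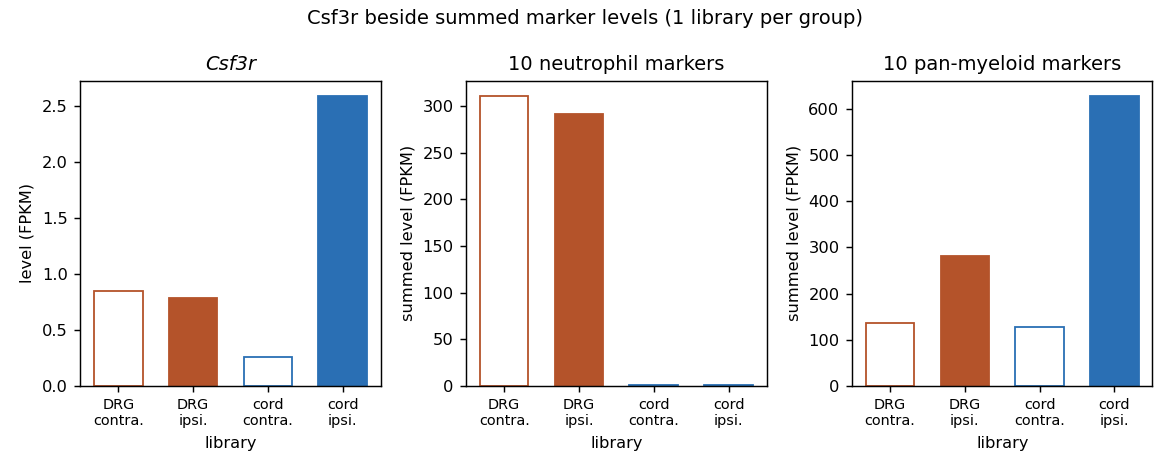
Level of Csf3r (left) and summed levels of 10 neutrophil markers (middle) and 10 pan-myeloid markers (right), in FPKM, for the 4 libraries; open bars are contralateral and filled bars ipsilateral. Csf3r is highest in ipsilateral cord (2.59), where the neutrophil sum is 0.87 and the pan-myeloid sum is 630.

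Myeloid markers moved with Csf1r in both tissues. All 10 pan-myeloid markers were at least 2-fold higher in ipsilateral cord, with a summed level of 128 FPKM contralaterally and 630 ipsilaterally. In DRG 5 of the 10 were 2-fold higher, and the sums were 137 and 281 FPKM. None of the 10 was at 0 in any library. The log2 ratio of Csf1r in cord (1.81) lay in the middle of these markers, with 5 above and 5 below it, while 7 of the 10 had a larger plain fold. In DRG that of Csf1r (1.92) was above those of all 10, of which C1qa at 1.56 and Ctss at 1.54 came nearest. The place of Csf3r among these markers in cord depended on the pseudocount: 7 of the 10 had a larger log2 ratio, but only Cd68 and Aif1 had a larger plain fold. In DRG all 10 were above Csf3r on both measures. The part of these markers in the Csf1r and Csf3r differences was not tested.

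Microglia markers were higher ipsilaterally in both tissues, and macrophage markers passed 2-fold in DRG. Of 10 microglia markers, all measured in cord, 8 were 2-fold higher there, with sums of 128 and 360.3 FPKM. Olfml3 was at 9.61 against 59.2 FPKM and P2ry12 at 8.63 against 30.2. In DRG all 8 measured microglia markers had a log2 ratio above 0 and 4 were 2-fold higher: Fcrls at 1.41 against 12.1 FPKM, Gpr34 at 0.23 against 2.13, Cx3cr1 at 1.93 against 6.35 and Tmem119 at 0.41 against 1.87. P2ry12 was at 2.11 against 3.57 FPKM in DRG, and Sall1 and Siglech did not reach 1 FPKM there. Of 10 macrophage markers, 7 were 2-fold higher in ipsilateral DRG, with sums of 33.9 and 92.5 FPKM, including Ms4a7 at 1.49 against 10.01 and the mannose receptor gene Mrc1 at 3.51 against 14.7. In cord 3 of the 10 macrophage markers were measured and 0 were 2-fold higher, with sums of 9.27 and 10.5 FPKM, and Pf4 was at 0 in both libraries.

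**Figure D3:**
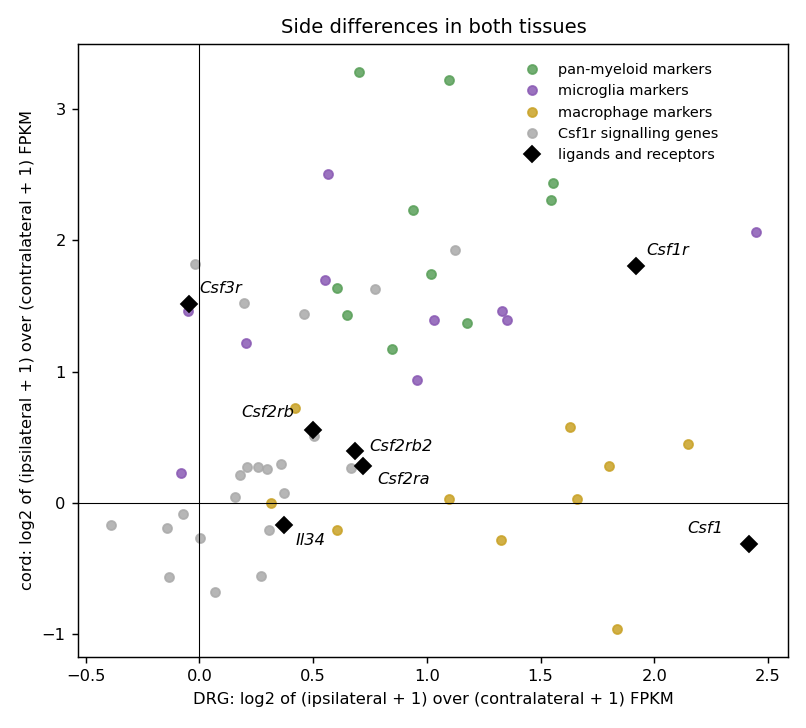
Log2 ratio (ipsilateral over contralateral, 1 FPKM added to each level) in DRG on the horizontal and in cord on the vertical axis, with the 7 ligand and receptor genes as black diamonds and 4 gene lists as coloured points. Csf1 lies at 2.42 and -0.31, Csf3r at -0.05 and 1.52, and Csf1r high in both at 1.92 and 1.81.

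The side difference itself was compared between the tissues by subtracting the deposited log2 folds, with the interval from both implied standard errors. For Csf1 the DRG difference exceeded the cord difference by 2.85 on the log2 scale (interval 2.28 to 3.42). For Csf3r the cord difference exceeded the DRG difference, at -3.44 for DRG minus cord (-5.17 to -1.71). For Csf1r the value was 0.27 (-0.50 to 1.04), for Il34 0.60 (-0.44 to 1.65), for Csf2ra 0.68 (-0.56 to 1.93), for Csf2rb -0.94 (-2.72 to 0.84) and for Csf2rb2 0.53 (-1.45 to 2.52). These 5 intervals include 0, and those of the beta chain genes also include differences of more than 4-fold. All of these intervals derive from the authors' deposited tables and cover no variation between animals.

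**Figure D4:**
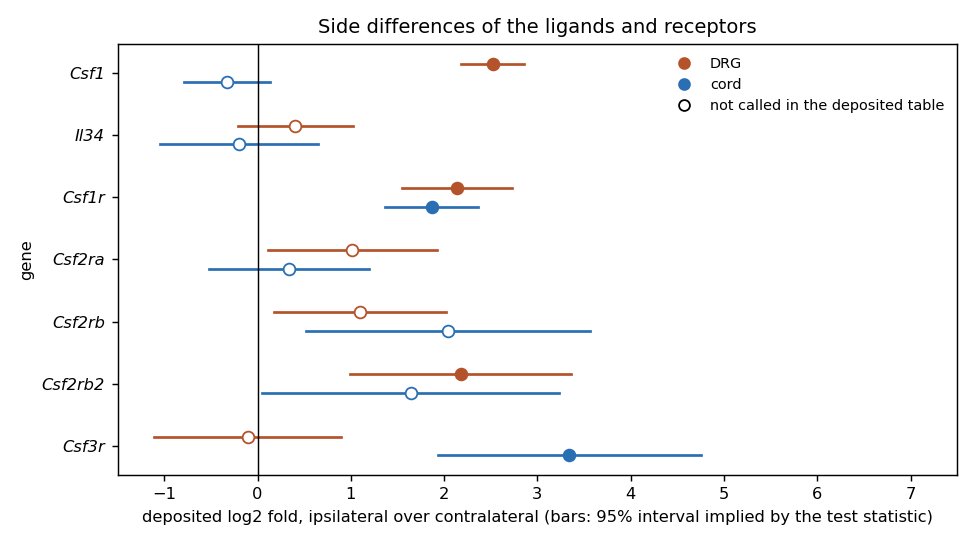
Deposited log2 fold of ipsilateral over contralateral level for each gene in DRG (orange) and cord (blue); bars are the 95% interval implied by the authors' test statistic, and filled points are differences called in their table. Csf1 is called in DRG, Csf1r in both tissues, Csf2rb2 in DRG and Csf3r in cord, and the bars of Csf2rb, Csf2rb2 and Csf3r are the widest.

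By the call of the authors' deposited tables (q up to 0.05), 3 members were higher in ipsilateral DRG (Csf1, Csf1r and Csf2rb2) and 2 in ipsilateral cord (Csf1r and Csf3r). Among all features with a completed test, 4.64% in DRG and 4.52% in cord were called higher in the authors' deposited tables. No member was called lower, against 1.9% and 1.55% of these features.

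Of 22 genes for signalling below CSF1R, 21 were measured in each tissue. In DRG 1 was at least 2-fold higher, Tyrobp, which encodes the adaptor DAP12, at 16.4 against 37.0 FPKM, and the median log2 ratio was 0.26. The authors' deposited table called 4 higher there: Tyrobp, Inpp5d at 0.92 against 2.28 FPKM, the kinase gene Sykb at 1.42 against 2.84, and Src at 10.2 against 14.9. In cord 5 were at least 2-fold higher: Tyrobp, Plcg2, Inpp5d, Lyn and Ptpn6. The median there was also 0.26. Plcg2, a phospholipase gene of blood cells, was at 0.69 against 4.97 FPKM (log2 ratio 1.82), and Inpp5d, encoding the lipid phosphatase SHIP1, at 0.71 against 4.30 (1.63). The kinase gene Lyn was at 1.63 against 6.56 FPKM (1.52) and the phosphatase gene Ptpn6 (SHP-1) at 3.48 against 11.2 (1.44). These 4 genes are known chiefly from blood cells. The widely expressed members were closer between sides, for example the kinase gene Akt1 at 60.6 against 73.3 FPKM (0.27) and the adaptor gene Grb2 at 71.3 against 48.2 (-0.55).

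Of 14 genes of the JAK-STAT pathway, which relays signals of the GM-CSF and G-CSF receptors, 13 were measured in DRG and 12 in cord, and 0 had a log2 ratio past 2-fold in either tissue. The median log2 ratio was 0.41 in DRG, with 11 of 13 above 0, and 0.11 in cord. The feedback inhibitor gene Socs2 had the largest log2 ratio in DRG, at 9.95 against 19.4 FPKM (0.90), and was called higher in the authors' deposited table. In cord the inhibitor gene Socs3 was at 0.34 against 1.52 FPKM (0.91), and the kinase gene Pim1 was at 5.58 against 2.51 (-0.91). By plain fold some measured genes passed 2-fold: Bcl3 in DRG (2.05), and Socs3 (4.49), Sh2b3 (3.61) and, downward, Pim1 (0.45) in cord. The authors' deposited table called none of these 4 differences.

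Among 8 transcription factor genes of myeloid cells, Sfpi1, which encodes PU.1, was 2-fold higher in both tissues. It was at 0.81 against 3.15 FPKM in DRG (log2 ratio 1.197) and at 1.22 against 5.18 in cord (1.48). Irf8 also passed 2-fold in cord, at 1.52 against 5.44 FPKM (1.36).

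IL-34 also has reported receptors other than CSF1R. Sdc1, which encodes the cell-surface proteoglycan syndecan-1, was at 11.96 FPKM in contralateral and 72.1 in ipsilateral DRG, a 6.03-fold difference with an interval of 4.15 to 8.77 in the authors' deposited table. In cord it was under 1 FPKM on both sides, at 0.88 and 0.65. Ptprz1, a receptor phosphatase gene, was at 16.0 and 14.4 FPKM in DRG and at 38.3 and 32.9 in cord. The genes of 2 proteases that shed membrane-bound proteins, CSF1 among their reported substrates, were higher ipsilaterally in DRG by less than 2-fold: Adam10 at 48.0 against 75.2 FPKM and Adam17 at 5.22 against 8.46.

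Genes with a pattern most like that of Csf1 and of Csf1r were found by the distance between their pairs of log2 ratios (DRG and cord) among 8367 genes with at least 5 FPKM in 1 library of each tissue. Nearest to Csf1 was Rhoq, a small GTPase gene, at a distance of 0.27, with 31.2 against 141 FPKM in DRG and 36.0 against 29.7 in cord. Cdkn1a, encoding the cell cycle inhibitor p21, followed at 0.29, with 31.4 against 146 FPKM in DRG. Trp53i11 (0.31), Tmem88b (0.35) and Igfbp3 (0.39), a binding protein gene of insulin-like growth factors, came next. Nearest to Csf1r were Fcgr3 at 0.53 and Fcrls at 0.59, both genes of Fc receptor or Fc receptor-like proteins, then Bcl2a1b (0.60), the cathepsin S gene Ctss (0.63) and the complement gene C1qc (0.64). Each likeness rests on 2 log2 ratios from 4 libraries and is a description only. The other members were not searched, because Csf3r did not reach 5 FPKM and the rest were under 2-fold on the log2 ratio in both tissues.

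Beside these differences, a few genes of other cell types also differed between the DRG libraries. Fibroblast markers summed to 303 FPKM contralaterally and 607 ipsilaterally, and 2 of 4 were 2-fold higher, or 1 after rescaling to equal medians or upper quartiles. Astrocyte markers, which satellite glia partly share, included 1 gene just past 2-fold upward, Aldh1l1 (log2 ratio 1.01, under 1 after either rescaling), and 2 past it downward, Slc1a2 at 7.98 against 2.34 FPKM and Aqp4 at 5.10 against 2.04. Oligodendrocyte markers Mog, Mobp and Opalin were at 0.71, 0.998 and 0.89 FPKM contralaterally and at 0.03, 0.04 and 0 ipsilaterally. All of these levels lie under the limit of 1 FPKM. The authors' deposited table called the Mobp difference, and not those of Mog and Opalin. Mag, the only oligodendrocyte marker measured in DRG, was slightly higher ipsilaterally, with a log2 ratio of 0.21 (plain fold 1.18). The part of these cell types in the differences of the ligand and receptor genes was not tested.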

How the data were processed

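Kits named in the labels' protocols are QIAGEN RNeasy Mini for RNA and Epicentre ScriptSeq for the libraries. The submitters' processing notes name mm9, TopHat 1.4.0 and Cuffdiff 1.3.0; annotation, filters and strand setting are not given in the sources used here. Per tissue, the authors deposited 1 table, with FPKM levels, a log2 fold, a test statistic, p-values and q-values, per the file headers. The 2 tables were normalized separately, so levels across tissues are side by side only. FPKM carry no read numbers, so depth is unknown. Summed FPKM ran from 425636 to 442298 per library. The deposited p-values matched a two-sided normal test of the statistic, within 1%, for 100% of tested features, so the standard error of the log2 fold was taken as its size divided by that of the statistic.

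From the files were computed the log2 ratio (pseudocount 1 FPKM; measured at 1 FPKM or more; 2-fold at 1 or -1 and beyond), list counts and distances, with Python 3.11.15, pandas 2.3.3 and numpy 2.4.6, after checks on simulated data. The members and the 24 gene lists (169 genes) were chosen with earlier results of these data known. Genes named are all members, Csf2, Csf3, up to 4 per list and tissue with the largest log2 ratio in size, and 5 like genes per member; other list genes were named after their values were seen. Of the listed genes, 168 were found, some under older symbols that RefSeq lists (Sfpi1 for Spi1, Sykb for Syk). The 12 motifs and the plain fold were chosen after seeing the data. Of the 7 members, 4 had a RefSeq promoter sequence (GRCm38.p6). Columns of per-sample values left unused numbered 0. Some genes of the lists are not reported here by name.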

Additional observations from a re-analysis of the deposited data

Results flagged for a closer look

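Several genes had log2 ratios of opposite sign in the 2 tissues; with 1 library per group no test of these differences between tissues over replicates was possible, so they were not tested. The intervals from the authors' deposited tables, which cover no variation between animals, exclude 0 for the DRG minus cord difference of Csf1 (2.28 to 3.42) and Csf3r (-5.17 to -1.71) and include it for Il34 (-0.44 to 1.65). Csf1 had a log2 ratio of 2.42 in DRG and -0.31 in cord, and Sdc1 had 2.50 in DRG and -0.19 in cord. In the other direction, Csf3r had -0.046 in DRG and 1.52 in cord, and the CSF1R signalling gene Plcg2 had -0.019 in DRG and 1.82 in cord. Il34 had 0.37 in DRG and -0.17 in cord, and the 95% interval of each by the authors' deposited tables includes equal levels.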

How the results depend on the processing

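No paired analysis was possible because each group has 1 library, and for the same reason no library could be left out. Tried instead were a pseudocount of 0.1 or of 3 FPKM, a low-value filter at 5 FPKM or none at all, rescaling to equal medians or upper quartiles, completed tests only, the authors' significance call and, chosen after seeing the data, the plain fold. Csf1 in DRG and Csf1r in both tissues were counted as higher under each. Members 2-fold higher in cord numbered 1 in place of 2 at a pseudocount of 3 FPKM and at a filter of 5 FPKM, because Csf3r dropped out, and so did members whose log2 ratios differed by 1 or more between tissues (1 in place of 2 under both). With the plain fold, members 2-fold higher in DRG numbered 4 in place of 2, because Csf2ra and Csf2rb were added. The share of all measured features past 2-fold by plain fold was not computed. The 3.04% given for DRG holds for the log2 ratio with 1 FPKM added. The log2 ratio of Csf3r in cord was 1.52, 0.78 at a pseudocount of 3 FPKM, 2.92 at 0.1 FPKM and 3.34 as the plain fold. Among the lists, the 33 listed genes 2-fold higher in DRG ranged from 22 to 43 over the alternatives and the 33 in cord from 25 to 39. Among CSF1R signalling genes 2-fold higher, DRG had 1, and 4 by the authors' significance call. At a pseudocount of 3 FPKM, genes 2-fold higher in DRG numbered 1 in place of 4 microglia markers, 2 in place of 5 pan-myeloid markers and 0 in place of 2 myeloid transcription factors, and in cord the last number was also 0. Conversely, JAK-STAT genes 2-fold higher in cord numbered 2 in place of 0 at 0.1 FPKM and by plain fold, and in DRG 1 by plain fold and 1 by the authors' call. A larger pseudocount shrinks every ratio by construction, and most at low levels. Depth is unknown, so no counting error can be given for any level.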

Other observations

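Among the relatives of CSF1R, the class III receptor tyrosine kinases and their ligands, 0 of 10 genes had a log2 ratio past 2-fold in either tissue, with medians of -0.01 in DRG and -0.11 in cord. Kit was at 16.3 FPKM contralaterally and 15.7 ipsilaterally in DRG, and its ligand gene Kitl at 18.5 and 26.1. Pdgfra, a receptor gene of fibroblasts and oligodendrocyte precursors, was at 3.08 against 6.07 FPKM in DRG, a difference called in the authors' deposited table. By plain fold, Pdgfd in DRG, at 1.58 against 0.46 FPKM (0.29), and Flt3l in cord, at 1.58 against 0.69 (0.44), were past 2-fold lower, and neither was called there. Pdgfra in cord was at 11.2 against 13.3.

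Mast cell markers were found in DRG and not in cord. In DRG 2 of 4 were 2-fold higher ipsilaterally, Cma1 at 2.27 against 8.05 FPKM and Mcpt4 at 4.75 against 11.7, while in cord all 4 were listed at 0 in both libraries. Of 6 proliferation genes, 3 reached 1 FPKM in DRG and 1 in cord, and 0 had a log2 ratio past 2-fold in either tissue. Birc5 was at 7.94 and 8.19 FPKM in DRG and at 3.42 and 1.77 in cord, and Mki67 was at 2.04 and 1.84 FPKM in DRG and at 0.25 and 0.14 in cord.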
